A study of Mus musculus with 12 samples.

Results

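The dual-specificity MAP kinase phosphatases were followed in the brain of mice after cerebral ischemia with and without lactate. The group holds 10 genes (Dusp1, Dusp2, Dusp4, Dusp5, Dusp6, Dusp7, Dusp8, Dusp10, Dusp14 and Dusp16) of the 31208 genes in the deposited table, chosen by their symbols, and each symbol has 1 row. The study asked how a raised brain lactate level bears on the injury of ischemic stroke, and this experiment compared the transcripts of ischemic brains with and without lactate given beforehand. The 12 mice were C57BL/6 males 8 weeks old, with no transgene named for this experiment, and fell into 3 groups of 4. The first group was sham, and the methods used here do not say whether these mice had an injection. The second had ischemia for 6 h, by a filament placed at the origin of the left middle cerebral artery (MCAO), after an intracerebroventricular injection of vehicle, 2 μL of sterile saline, given 24 h before. The third had the same occlusion after 2 μL of lactate at 100 mmol/L, and the methods name D-lactate where the labels name only lactate. Total RNA of brain tissue was read as long nanopore cDNA, and the labels name the tissue only as brain, which the study calls ischemic brain tissue in the occluded mice.

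MAP kinases (ERK, JNK and p38) carry signals from growth factors, synaptic activity and stress, and are switched on by phosphorylation of a threonine and a tyrosine in their activation loop. The dual-specificity MAP kinase phosphatases remove both phosphates and so switch the kinases off. Several of them are themselves transcribed within minutes of MAP kinase activation, as a negative feedback, and in the brain they are known as genes induced by seizures, neuronal activity and ischemia. Dusp1, Dusp2, Dusp4 and Dusp5 encode the nuclear, inducible enzymes. Dusp6 and Dusp7 encode cytoplasmic enzymes that prefer ERK, and Dusp8, Dusp10 and Dusp16 encode enzymes that prefer JNK and p38. Dusp14 is an atypical, small member that lacks the N-terminal rhodanese-like domain by which the others dock on their kinases. The annotation in the deposited table gave the dual-specificity catalytic domain to 10 of the 10 genes and the rhodanese-like domain to 9, all but Dusp14.

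Total counts per mouse ranged from 6815920 to 10677224, so that 3 counts, taken as the floor of detection, stood for 0.281 to 0.440 CPM (counts divided by the total of the library and scaled to a common total). This floor covers counting error only. Neuronal, astrocyte and oligodendrocyte markers were present in every library, as the label brain requires. The 6 neuronal markers summed to 4150.0 to 4440.0 CPM in sham and 3270.0 to 4140.0 CPM in lactate mice. In vehicle mice 1 to 4 they summed to 5050.0, 3640.0, 3430.0 and 3550.0 CPM, and 0 of the 6 were called in each comparison. Several marker lists moved with the groups, and their part in the results below was not tested. Values without a mouse, given below, leave out all that is particular to that mouse and do not test it. Microglial markers (5 genes) summed to 124.0 to 142.0 CPM in sham, 77.6 to 106.0 CPM in vehicle and 101.0 to 112.0 CPM in lactate mice. Cx3cr1 and P2ry12 were called lower with vehicle and P2ry12 with lactate. The list did not move as one: Aif1 was at 17.6 to 23.3 CPM in sham and 25.3 to 26.3 CPM in lactate mice. Tmem119 and Csf1r overlapped with sham in both ischemic groups. The 5 astrocyte markers summed to 548.0 to 844.0 CPM in sham, 753.0 to 843.0 CPM in vehicle and 923.0 to 977.0 CPM in lactate mice. Only Gfap was called, higher in both ischemic groups (34.5 to 73.7 CPM in sham and 248.0 to 334.0 CPM in lactate mice). Aqp4, Slc1a2, Slc1a3 and Aldh1l1 overlapped with sham in both ischemic groups. Erythrocyte markers summed to 559.0 to 631.0 CPM in sham, 332.0 to 499.0 CPM in vehicle and 375.0 to 498.0 CPM in lactate mice, and striatal markers to 360.0 to 566.0 CPM in sham and 637.0 to 755.0 CPM in lactate mice. Of the striatal markers only Ppp1r1b was called, with lactate against sham (235.0 to 341.0 CPM in sham and 384.0 to 511.0 CPM in lactate mice). Drd1, Drd2, Adora2a and Penk overlapped between these 2 groups. In vehicle mice 1 to 4 the striatal markers summed to 543.0, 237.0, 655.0 and 251.0 CPM. Vehicle mouse 1 stood apart from the other 11 on the second principal component of all genes (-56.5, against -6.5 to 16.2). The summed level of 5 neutrophil markers was 2.68 to 4.88 CPM in sham, 11.3 to 71.0 CPM in vehicle and 18.3 to 39.3 CPM in lactate mice. Of these 5 markers, 3 were tested and 2 of them (S100a8 and S100a9) rose in both ischemic groups, while Ly6g was at 0 in every sham mouse and reached at most 0.249 CPM. Ttr, a choroid plexus transcript, was at 1820.0 CPM in vehicle mouse 2 and at most 16.2 CPM in the other mice, and it was called higher with lactate against sham (log2 fold change 3.25, adjusted p = 9.511e-05, edgeR). In bulk brain tissue, fewer cells of a type and less RNA per cell cannot be told apart. A gene was called where edgeR's quasi-likelihood test gave a Benjamini-Hochberg adjusted p under 0.05, taken over the whole table, with a change of 1.5-fold or more. The labels number 4 replicates per group, taken here as separate mice, and the p-values measure only the spread between these samples.

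The promoters of 4 members are shown because these genes gave the contrasting patterns below: Dusp5 was called, Dusp1 varied most between vehicle mice, Dusp6 varied with Dusp1, and Dusp8 stayed near its sham level in most mice. The sequences are RefSeq's on GRCm38.p6, 5′ to 3′ on the strand of the gene, and run from 250 bases before the start site up to the start site or to the first base of the gene's own annotated exons. The windows are chr19:53528895-53529108 (plus strand) for Dusp5, chr17:26508520-26508722 (minus strand) for Dusp1, chr7:142095285-142095534 (minus strand) for Dusp8 and chr10:99262981-99263230 (plus strand) for Dusp6. Capitals mark the cAMP response element (CRE, TGACGTCA), its shorter form TGACG on either strand (which also lies within the CRE), and the CArG box, the site named for serum response factor.
Dusp5: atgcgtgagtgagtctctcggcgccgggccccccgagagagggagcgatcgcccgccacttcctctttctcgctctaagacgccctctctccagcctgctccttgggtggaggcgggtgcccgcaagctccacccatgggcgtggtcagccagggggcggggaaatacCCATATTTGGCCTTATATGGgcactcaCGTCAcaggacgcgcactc
Dusp1: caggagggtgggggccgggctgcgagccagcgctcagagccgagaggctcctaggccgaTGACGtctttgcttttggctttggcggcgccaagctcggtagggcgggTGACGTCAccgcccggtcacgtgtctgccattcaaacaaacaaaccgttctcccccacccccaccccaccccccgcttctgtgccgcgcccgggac
Dusp8: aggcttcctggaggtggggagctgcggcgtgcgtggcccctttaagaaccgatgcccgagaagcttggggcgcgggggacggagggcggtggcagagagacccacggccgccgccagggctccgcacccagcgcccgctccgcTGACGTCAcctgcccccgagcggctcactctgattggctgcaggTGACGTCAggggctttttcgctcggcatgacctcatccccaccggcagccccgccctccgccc
Dusp6: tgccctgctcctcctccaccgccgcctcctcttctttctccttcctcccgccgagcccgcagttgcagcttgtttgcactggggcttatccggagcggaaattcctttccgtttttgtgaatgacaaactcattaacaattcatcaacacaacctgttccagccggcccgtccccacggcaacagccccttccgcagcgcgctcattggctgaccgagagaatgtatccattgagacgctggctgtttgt
A promoter was found for 9 of the 10 members, and Dusp4 had no entry. In the 250 bases before the start site, Dusp5 held 2 CArG boxes side by side (CCATATTTGG at -82 to -73 and CCTTATATGG at -72 to -63), and it was the only one of the 9 with this motif, which 1.47% of 32851 promoters hold. The full CRE lay in Dusp1 (-143 to -136) and at 2 places in Dusp8 (-107 to -100 and -63 to -56), against 1.55% of all promoters. The shorter form TGACG was found in Dusp1, Dusp5, Dusp8 and Dusp16, against 17.8% of all promoters. The GC box GGGCGG was in 7 of the 9, against 32.7% of all promoters. All 250 bases were searched, of which 100 in Dusp14, 47 in Dusp1 and 36 in Dusp5 lay in the gene's own annotated exons. In Dusp14 only the first 27 bases come before these exons begin, and its GC box (-21 to -16) lay past that point. The AP-1 motif TGANTCA (6.75% of all promoters), the ETS motif CCGGAAG (6.91%) and TATAAA (12.4%) were in 0 of the 9, with both strands searched. A match describes letters in this window and is no evidence that a factor bound there.

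After ischemia with vehicle, Dusp5 was the only member called. Dusp5 encodes a nuclear phosphatase specific for ERK (chr19:53529109-53542431, plus strand, in GENCODE mouse release M21 on GRCm38, which also gives the positions below). Its level was 1.58, 1.00, 1.22 and 0.987 CPM in the 4 sham mice and 4.12, 3.5, 6.10 and 2.05 CPM in the vehicle mice. Every vehicle mouse lay above every sham mouse, and vehicle mouse 3 was the highest. Dusp5 rose 3.38-fold with vehicle (log2 fold change 1.76, SE 0.36, adjusted p = 0.0316, edgeR), and a two-sided exact permutation test of log2(CPM + 1) gave p = 0.0286, the smallest that 4 against 4 mice allow. Across all genes tested in this comparison, 1.47% were called in either direction and 1.29% were called up, so that 1 called member of 10 is to be read against that share. These levels rest on 8 to 12 counts per sham mouse and 14 to 49 counts per vehicle mouse. The call depended on single mice: the adjusted p (edgeR) was 0.0728, 0.111, 0.108 and 0.116 without sham mice 1, 2, 3 and 4, 0.0606 without vehicle mouse 2 and 0.1095 without vehicle mouse 3, while the log2 fold change stayed between 1.49 and 1.97 whichever mouse was left out. An antisense gene overlaps Dusp5, and the sources do not say whether strand was used in counting, so reads of the pair may be mixed.

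In the lactate mice, Dusp5 was at 2.84, 2.40, 1.32 and 3.13 CPM. Mice 1, 2 and 4 lay above every sham mouse, and mouse 3 lay within the sham range. The log2 fold change against sham was 1.05 (SE 0.34) with an adjusted p of 0.0613 (edgeR), past the fold limit but not past the adjusted p. Without lactate mouse 3 it was 1.26 with an adjusted p of 0.0284. Against vehicle, the level with lactate was 0.606 of that with vehicle (log2 fold change -0.72, SE 0.37, adjusted p = 0.591, edgeR, and -0.452 without vehicle mouse 3), and lactate mouse 3 alone lay below every vehicle mouse.

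Dusp4, a nuclear phosphatase that acts on ERK and also on JNK and p38 (chr8:34807297-34819894, plus strand), had a similar order of groups. It was measured at 2.37, 3.23, 3.8 and 2.59 CPM in sham mice, at 4.50, 7.51, 20.0 and 5.72 CPM in vehicle mice and at 3.52, 10.8, 3.82 and 4.29 CPM in lactate mice. As for Dusp5, the vehicle and sham mice did not overlap, and 4.14% of all genes tested lay higher without overlap in that comparison. Against sham, its log2 fold change of 1.68 (SE 0.43) did not pass the test (adjusted p = 0.0927, edgeR), and the exact permutation test gave the smallest possible p, 0.0286. It passed with DESeq2 (adjusted p = 0.0108), with limma voom and sample quality weights (adjusted p = 0.043) and without vehicle mouse 1 (adjusted p = 0.0305, edgeR), while without vehicle mouse 3 the log2 fold change was 1.01. In lactate mice, 3 of the 4 lay above every sham mouse, with mouse 2 far above the other 3. This gave a log2 fold change of 0.93 (SE 0.36, adjusted p = 0.113, edgeR) against sham and -0.76 (SE 0.49, adjusted p = 0.678, edgeR) against vehicle. These were 0.41 without lactate mouse 2 and -0.09 without vehicle mouse 3.

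Dusp1, the immediate-early phosphatase of p38, JNK and ERK also known as MKP-1 (chr17:26505590-26562128, minus strand), had the lowest fold change of the group with lactate against vehicle. In sham mice it was at 8.70, 7.13, 17.9 and 16.2 CPM. In vehicle mice it was at 8.62, 39.9, 88.5 and 6.46 CPM, so that mice 2 and 3 lay above every sham mouse, mouse 4 lay below every sham mouse and mouse 1 lay within them. In lactate mice it was at 5.95, 8.86, 6.33 and 8.12 CPM, a narrow range in which mice 1 and 3 lay below every sham mouse. The highest vehicle mouse had 13.7 times the level of the lowest, against 1.49 times among lactate mice. The log2 fold change was 1.56 (SE 0.66, adjusted p = 0.316, edgeR) with vehicle against sham. It was 0.60 without vehicle mouse 3 and 1.89 without vehicle mouse 1. With lactate it was -0.73 against sham (SE 0.28, adjusted p = 0.112, edgeR) and -2.30 against vehicle (SE 0.67, adjusted p = 0.481, edgeR), and the latter was -1.34 without vehicle mouse 3. Without sham mouse 2 the difference between lactate and sham passed the test (log2 fold change -0.92, adjusted p = 0.0433, edgeR). The difference between lactate and vehicle had an unadjusted p of 0.00506 in edgeR, but an exact permutation test gave 0.171, since lactate and vehicle mice overlapped. Neutrophil markers summed to 50.2 and 71.0 CPM in vehicle mice 2 and 3 and to 14.8 and 11.3 CPM in vehicle mice 1 and 4, the same split as for Dusp1, and their part in the result was not tested. Dusp1 shares its annotated span with Ergic1 on the opposite strand.

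Dusp2, a nuclear phosphatase best known from activated immune cells (chr2:127336159-127338376, plus strand), was close to the limit of detection. It had 2 to 8 counts per sham mouse, 7 to 18 per vehicle mouse and 2 to 17 per lactate mouse. The levels were 0.659, 0.223, 1.09 and 0.863 CPM in sham, 1.69, 1.17, 0.871 and 1.47 CPM in vehicle and 0.27, 2.04, 0.527 and 1.39 CPM in lactate mice. The groups overlapped in each comparison. Its log2 fold change was 0.93 (SE 0.45, adjusted p = 0.383, edgeR) with vehicle against sham and -0.30 (SE 0.52, adjusted p = 0.892, edgeR) with lactate against vehicle, where leaving out 1 mouse gave values from -0.81 (without lactate mouse 2) to -0.002 (without lactate mouse 1). It did not pass the filter on low counts in lactate against sham and was not called in the other comparisons. Whether depth limits this was not tested.

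**Figure D1:**
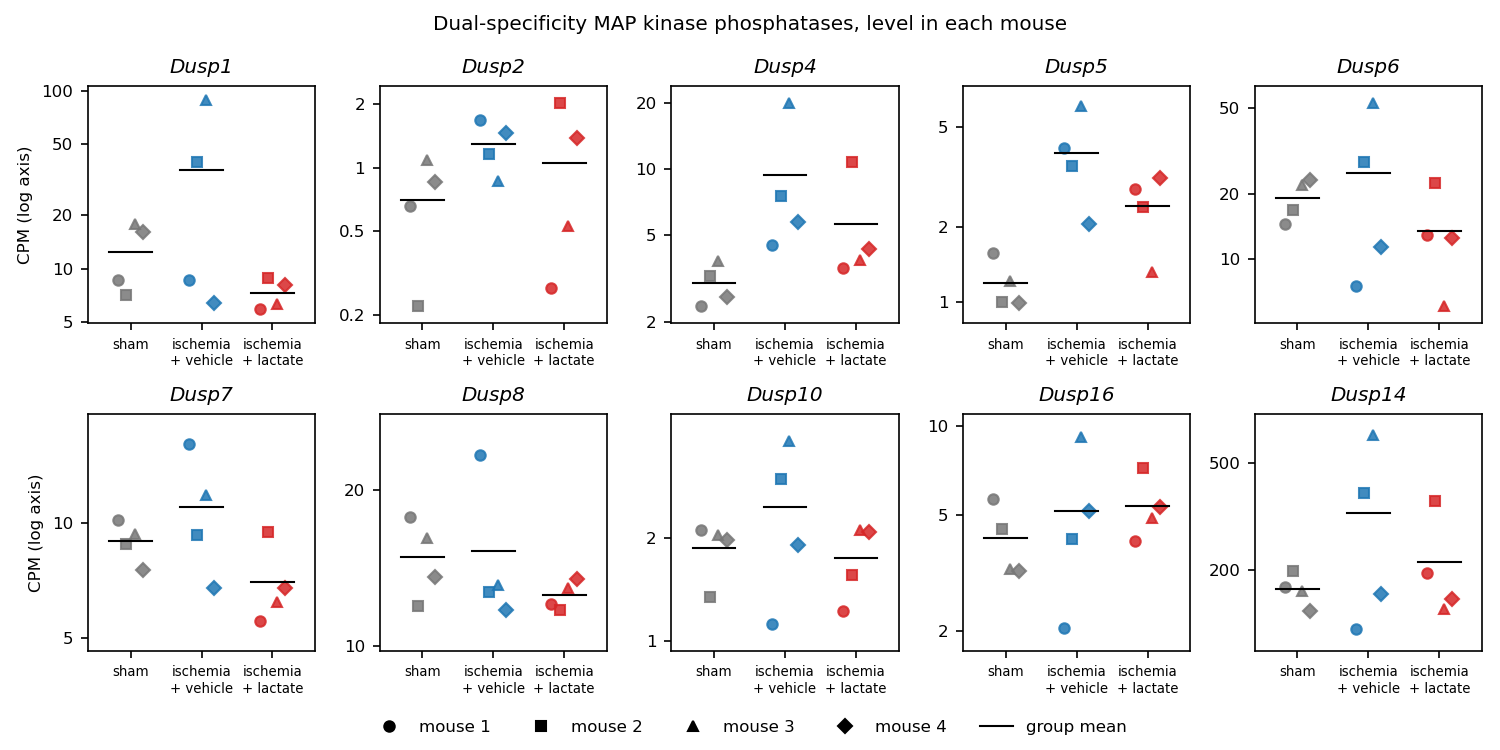
Level of each of the 10 phosphatases in CPM on a log axis (a separate axis for each gene), with 1 point per mouse, its shape giving the mouse number, and a line at the mean of each group of 4. The vehicle mice of Dusp4 and Dusp5 lie above all sham mice, vehicle mice 2 and 3 of Dusp1 (39.9 and 88.5 CPM) lie above the rest, and the lactate mice of Dusp1 sit between 5.95 and 8.86 CPM.

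None of the cytoplasmic ERK phosphatases was called in any comparison. Dusp6, a feedback inhibitor of ERK also known as MKP-3 (chr10:99263231-99267489, plus strand), was at 14.5, 16.8, 22 and 23.3 CPM in sham mice, 7.49, 28.2, 52.8 and 11.4 CPM in vehicle mice and 13.0, 22.5, 6.07 and 12.5 CPM in lactate mice. Vehicle mice 2 and 3 lay above and mice 1 and 4 below every sham mouse, with a group mean of 25 ± 20.6 CPM (SD, n = 4). With vehicle, Dusp6 had a log2 fold change of 0.41 against sham (SE 0.46, adjusted p = 0.758, edgeR). This was -0.25 without vehicle mouse 3 and 0.72 without vehicle mouse 1. It was -0.47 (SE 0.30, adjusted p = 0.346, edgeR) with lactate against sham, where 3 lactate mice lay below every sham mouse (-0.822 without lactate mouse 2 and -0.221 without lactate mouse 3), and -0.89 (SE 0.53, adjusted p = 0.655, edgeR) against vehicle, which was -0.23 without vehicle mouse 3.

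Dusp7, the other cytoplasmic ERK phosphatase (chr9:106368632-106375724, plus strand), varied less. Its level was 10.2, 8.81, 9.37 and 7.52 CPM in sham, 16.1, 9.32, 11.8 and 6.75 CPM in vehicle and 5.54, 9.46, 6.20 and 6.73 CPM in lactate mice. Here vehicle mouse 1, not mouse 3, was the highest, and lactate mice 1, 3 and 4 lay below every sham and every vehicle mouse. For Dusp7 the log2 fold change was 0.34 (SE 0.26, adjusted p = 0.605, edgeR) with vehicle against sham, -0.32 (SE 0.20, adjusted p = 0.339, edgeR) with lactate against sham and -0.69 (SE 0.28, adjusted p = 0.536, edgeR) with lactate against vehicle. Without vehicle mouse 1, vehicle against sham was 0.095 and lactate against vehicle -0.425.

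The phosphatases of JNK and p38 were not called either. Dusp8, which is expressed mainly in brain and heart (chr7:142079490-142095843, minus strand), was at 17.7, 11.9, 16.2 and 13.6 CPM in sham, 23.3, 12.7, 13.1 and 11.7 CPM in vehicle and 12, 11.7, 12.9 and 13.5 CPM in lactate mice. Vehicle mouse 1 stood alone above the other 11, and the lactate mice lay between 11.7 and 13.5 CPM. This mouse also had the highest total count and the highest neuronal marker sum (5050.0 CPM). It stood apart on the second principal component (-56.5), and the part of these traits was not tested. The log2 fold change lay between -0.31 and 0.09 in the 3 comparisons, and the value of -0.31, for lactate against vehicle, was -0.008 without vehicle mouse 1.

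Dusp10, also known as MKP-5 (chr1:184013302-184075636, plus strand), was at 2.11, 1.34, 2.04 and 1.97 CPM in sham, 1.12, 2.98, 3.86 and 1.91 CPM in vehicle and 1.22, 1.56, 2.11 and 2.09 CPM in lactate mice. Vehicle mice 2 and 3 were again the highest. The fold changes did not pass the test, with log2 values of 0.43 (SE 0.39), -0.05 (SE 0.30) and -0.50 (SE 0.40) for vehicle against sham, lactate against sham and lactate against vehicle. The first and last were 0.131 and -0.20 without vehicle mouse 3, and the first was 0.694 without vehicle mouse 1. Dusp16, also known as MKP-7 (chr6:134715468-134792625, minus strand), was at 5.67, 4.46, 3.26 and 3.21 CPM in sham, 2.06, 4.14, 9.21 and 5.14 CPM in vehicle and 4.06, 7.19, 4.88 and 5.33 CPM in lactate mice. It was the only member with a positive log2 fold change with lactate against vehicle (0.06, SE 0.38, adjusted p = 0.979, edgeR), a value that turned negative when vehicle mouse 1, vehicle mouse 2 or lactate mouse 2 was left out.

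Dusp14, the atypical member (chr11:84048041-84069261, minus strand), was read most deeply, with 1092 to 5076 counts per mouse, so that counting error adds little to its spread. It was at 173.0, 199.0, 168.0 and 142.0 CPM in sham, 121.0, 388.0, 632.0 and 164.0 CPM in vehicle and 196.0, 361.0, 144.0 and 156.0 CPM in lactate mice. Vehicle mice 2 and 3 and lactate mouse 2 lay above every sham mouse, while the other vehicle and lactate mice lay within or below the sham range. The log2 fold change was 0.97 (SE 0.39, adjusted p = 0.301, edgeR) with vehicle against sham, 0.36 (SE 0.24, adjusted p = 0.364, edgeR) with lactate against sham and -0.62 (SE 0.45, adjusted p = 0.719, edgeR) with lactate against vehicle. Without vehicle mouse 3, vehicle against sham was 0.438 and lactate against vehicle -0.09, and without lactate mouse 2, lactate against sham was -0.006. Without vehicle mouse 1, vehicle against sham was 1.24 (adjusted p = 0.0754, edgeR).

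**Figure D2:**
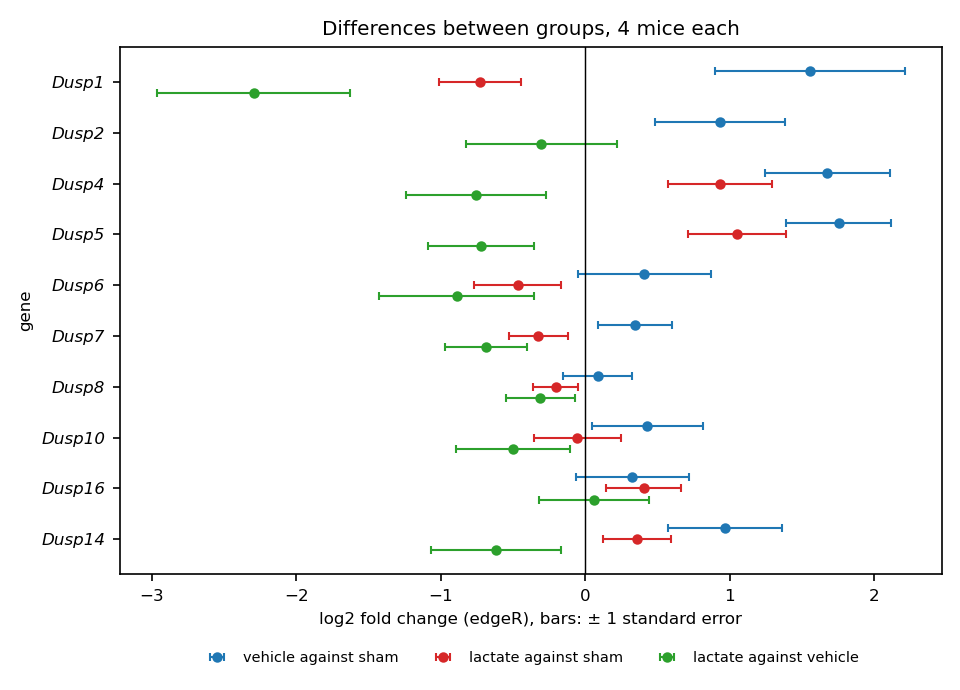
Log2 fold change of each phosphatase from edgeR (horizontal axis) for the 3 comparisons, with bars of 1 standard error and 4 mice per group. Dusp5 with vehicle against sham (1.76) was the only one that passed the test, the values of vehicle against sham all lie right of 0, and Dusp1 with lactate against vehicle (-2.30, or -1.34 without vehicle mouse 3) lies farthest left. Dusp2 was not tested in lactate against sham.

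Over the 10 genes, the log2 fold change with vehicle against sham was positive in 10 of 10, with a median of 0.68, against a median of 0.003 and 50.4% positive over all 17019 genes tested. Single mice moved this in both directions. Without vehicle mouse 3, 8 of 10 were positive and the median was 0.379, and without vehicle mouse 2 the median of the 9 tested was 0.423. Without vehicle mouse 1 the median was 0.723, with 8 of the 9 tested positive. By the rule without adjustment (p under 0.05, fold of at least 1.5), 4 members were higher (Dusp1, Dusp4, Dusp5 and Dusp14), against 6.50% of all genes. Of these, 2 (Dusp4 and Dusp5) were left without sham mouse 1, without vehicle mouse 2, with DESeq2 and with the replicate block, and without vehicle mouse 3 the rule gave Dusp2, Dusp4 and Dusp5. With lactate against sham, 4 of the 9 tested were positive and 5 negative, with a median of -0.05 against -0.027 over all 17262 genes, of which 10.4% were called. This median had no steady direction: with Dusp2 also tested, 5 of 10 were positive and the median was 0.099 with no filter, 0.129 with the filter at 0.5 CPM, 0.132 with DESeq2 and 0.158 in 1 fit of all mice, and over the 9 it was 0.079 without lactate mouse 1. No member was called there, and by the unadjusted rule Dusp4 and Dusp5 were higher and Dusp1 lower, against 17.5% of all genes in either direction. Dusp5 alone was left without sham mouse 4 and in 1 fit of all 12 mice. With lactate against vehicle, 9 of 10 were negative, with a median of -0.65 against -0.029 over all 17419 genes, and the median was -0.308 without vehicle mouse 3. No member was called in that comparison, in which edgeR called 1 gene of all tested (0.00574%), DESeq2 called 45 up and 9 down, and 1539 genes had an unadjusted p under 0.05. Of the members, 2 (Dusp1 and Dusp7) were lower by the unadjusted rule, against 2.47% of all genes. Dusp1 alone was left without vehicle mouse 3, without lactate mouse 1, 3 or 4 and with the replicate block, while 3 members were lower without vehicle mouse 4 or lactate mouse 2 and 4 with limma voom. Both comparisons of lactate share a group with the comparison of vehicle and sham, so these counts are not independent of each other.

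The spread within a group was largest in the vehicle mice for 9 of the 10 members, all but Dusp2, as it was for 51.3% of 18134 genes. The median SD of log2(CPM + 1) over all genes was 0.231 in sham, 0.312 in vehicle and 0.241 in lactate mice. The SD of log2(CPM + 1) over the 4 vehicle mice was 1.71 for Dusp1, 1.2 for Dusp6, 1.10 for Dusp14 and 0.86 for Dusp4, against that median of 0.31. Only 0.0827% of these genes had an SD in vehicle as large as that of Dusp1, 0.358% as large as that of Dusp6 and 0.557% as large as that of Dusp14. In lactate mice the SD of Dusp1 was 0.24, at the median of all genes (0.24), while Dusp6 (0.71), Dusp4 (0.64) and Dusp14 (0.60) still lay above it. Vehicle mouse 3 had the highest level of its group in 7 of the 10 members and vehicle mouse 1 in the other 3, and lactate mouse 2 was the highest of its group in 7.

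**Figure D3:**
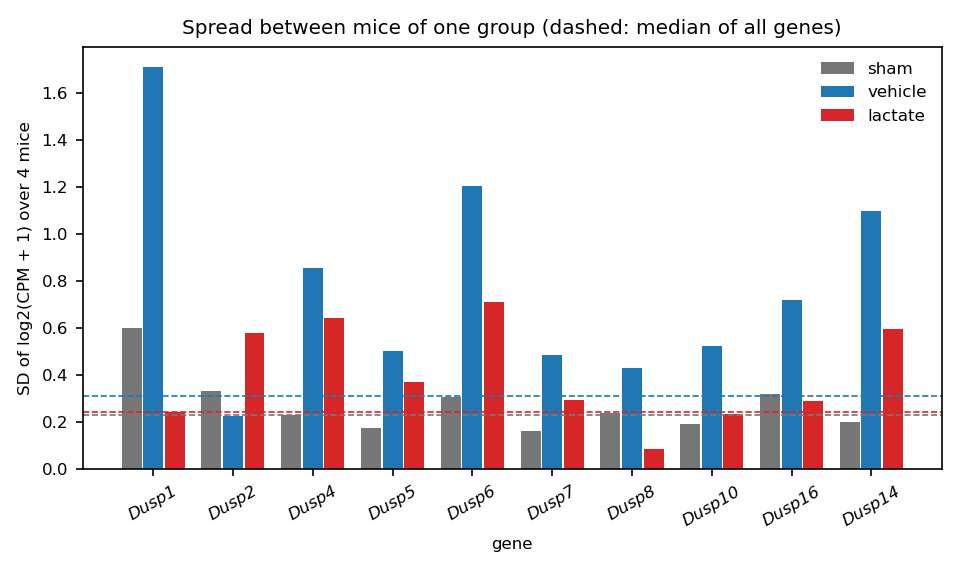
SD of log2(CPM + 1) over the 4 mice of each group (vertical axis) for each phosphatase, with a dashed line at the median over 18134 genes for each group. The vehicle bars of Dusp1 (1.71), Dusp6 (1.2) and Dusp14 (1.10) stand far above the vehicle median of 0.31.

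The split of the vehicle mice in Dusp1 was also seen in immediate-early genes, which were picked after their values were seen. Fos, a subunit of the AP-1 factor, was at 10.1, 138.0, 371.0 and 31.5 CPM in vehicle mice, 25.1, 29.2, 48.3 and 51.2 CPM in sham mice and 4.87, 53.3, 10.7 and 8.12 CPM in lactate mice. Egr1, an activity-induced zinc finger factor, was at 27.7, 127.0, 268.0 and 24.9 CPM in vehicle mice, 97.7, 102.0, 91.8 and 96.2 CPM in sham mice and 27.7, 76.5, 19.8 and 24.3 CPM in lactate mice. In both genes, vehicle mice 2 and 3 lay above every sham mouse, as for Dusp1, Dusp6, Dusp10 and Dusp14, while for Egr1 vehicle mice 1 and 4 and every lactate mouse lay below every sham mouse. The genes most like each member were listed for Dusp5 by rule, as the member called, and for the others after their values had been seen. Over the 12 mice, the genes most like Dusp1 among 7347 genes with a mean of at least 10 CPM were the immediate-early factors Nr4a1 (r = 0.942, Spearman rho = 0.909) and Junb (r = 0.942, rho = 0.72) and the lysosomal protease gene Ctsk (r = 0.932, rho = 0.916), and without the 2 vehicle mice farthest from the median r was 0.834, 0.805 and 0.73. Those most like Dusp6 were the neuronal activity factor Npas4 (r = 0.944, rho = 0.895), Nr4a1 (r = 0.938) and Junb (r = 0.916), and those most like Dusp14 were the stress response factor Atf4 (r = 0.944, rho = 0.776), Abt1 (r = 0.928) and Ptgs2 (r = 0.901). The gene most like Dusp4 was the heat shock co-chaperone Dnajb1 (r = 0.963, rho = 0.944). The nearest genes of the other members were Sh3bp5 for Dusp2 (r = 0.87), Panx2 for Dusp7 (r = 0.924), Actl6b for Dusp8 (r = 0.945), Ccnl2 for Dusp10 (r = 0.901) and Ccdc174 for Dusp16 (r = 0.916). For Dusp5, the member called, they were the clock gene Per1 (r = 0.926, rho = 0.902, and 0.863 without sham mouse 4 and vehicle mouse 3), Fam89b (r = 0.874) and Ankrd33b (r = 0.861). These correlations are descriptions over 12 mice that share group, depth and outlying mice.

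**Figure D4:**
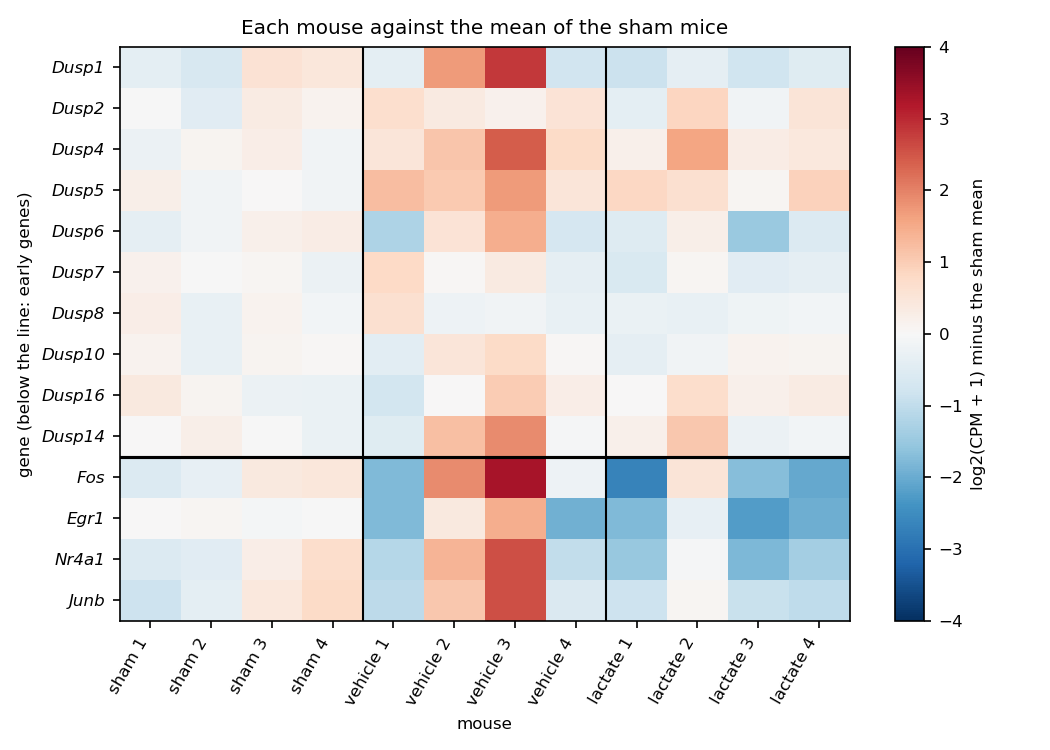
Log2(CPM + 1) of each phosphatase and of 4 early genes in each of the 12 mice, minus the mean of the sham mice, with red for higher and blue for lower. Vehicle mice 2 and 3 are red for Dusp1, Dusp4, Dusp6, Dusp14, Fos, Egr1, Nr4a1 and Junb, while vehicle mouse 1 and most lactate mice are blue for Dusp1 and the early genes.

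Of the MAP kinases, their upstream kinases and their substrates together, 1 of 48 genes tested was called with vehicle against sham, beside 1.47% of all genes, and 3 of 46 with lactate against sham, beside 10.4%. Of 13 mitogen-activated protein kinases, 11 were tested and 0 were called with vehicle against sham, with a median log2 fold change of 0.03. With lactate against sham, 1 was called: Mapk6, which encodes the atypical kinase ERK3, rose from 20.1 ± 1.79 to 30.2 ± 9.34 CPM (SD, n = 4 each; log2 fold change 0.62, adjusted p = 0.0458, edgeR). Mapk9, which encodes JNK2, passed the adjusted p (0.0173, edgeR) but not the fold limit, with a log2 fold change of -0.41. None of the 7 MAP kinase kinases was called in any comparison, and the 2 with the smallest p with lactate against sham were Map2k3 (log2 fold change 0.52, adjusted p = 0.136, edgeR) and Map2k7 (-0.30, adjusted p = 0.199).

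Among 18 MAP kinase kinase kinases, 17 were tested with vehicle against sham and 15 with lactate against sham. Map3k8, also known as Tpl2, an activator of ERK in inflammatory signalling, rose in both: it was at 0.898 ± 0.523 CPM in sham, 3.81 ± 1.23 CPM in vehicle and 3.08 ± 1.54 CPM in lactate mice (SD, n = 4 each), with log2 fold changes of 2.09 (adjusted p = 0.0294) and 1.77 (adjusted p = 0.0234) in edgeR. Its mean in sham lay below the 1 CPM of the filter, and its values without single mice were not examined. Map3k13, a kinase of the JNK pathway in neurons, fell with lactate against sham (log2 fold change -0.60, adjusted p = 0.0323, edgeR). None of 14 MAP kinase substrates, 13 tested against sham, was called, and the smallest p with lactate against sham belonged to Elk1 (log2 fold change 0.65, adjusted p = 0.0621, edgeR) and Rps6ka2 (0.54, adjusted p = 0.0718).

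Of 13 other inhibitors of the ERK pathway, 12 were in the table and 11 were tested with vehicle against sham, where 10 had a positive log2 fold change (median 0.23) and 1 was called, with 10 tested and 1 called with lactate against sham. This was Errfi1, a feedback inhibitor of the EGF receptor, which rose from 28.2 ± 7.95 CPM in sham to 110.5 ± 67.8 CPM in vehicle and 77.4 ± 14.9 CPM in lactate mice (SD, n = 4 each). Its log2 fold change was 2.01 (adjusted p = 0.0157) with vehicle and 1.495 (adjusted p = 4.719e-04) with lactate against sham in edgeR. Of 15 other dual-specificity phosphatases, 11 were tested and 0 were called in each comparison. From this nothing can be read at 1.47% called over all genes with vehicle against sham and 0.00574% with lactate against vehicle (10.4% with lactate against sham). The median log2 fold change of these 11 was 0.01 with vehicle against sham. The smallest p with lactate against sham belonged to Dusp3 (log2 fold change -0.33, adjusted p = 0.0822, edgeR) and Dusp19 (-0.39, adjusted p = 0.149). No gene of any of the 6 lists was called with lactate against vehicle.

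**Figure D5:**
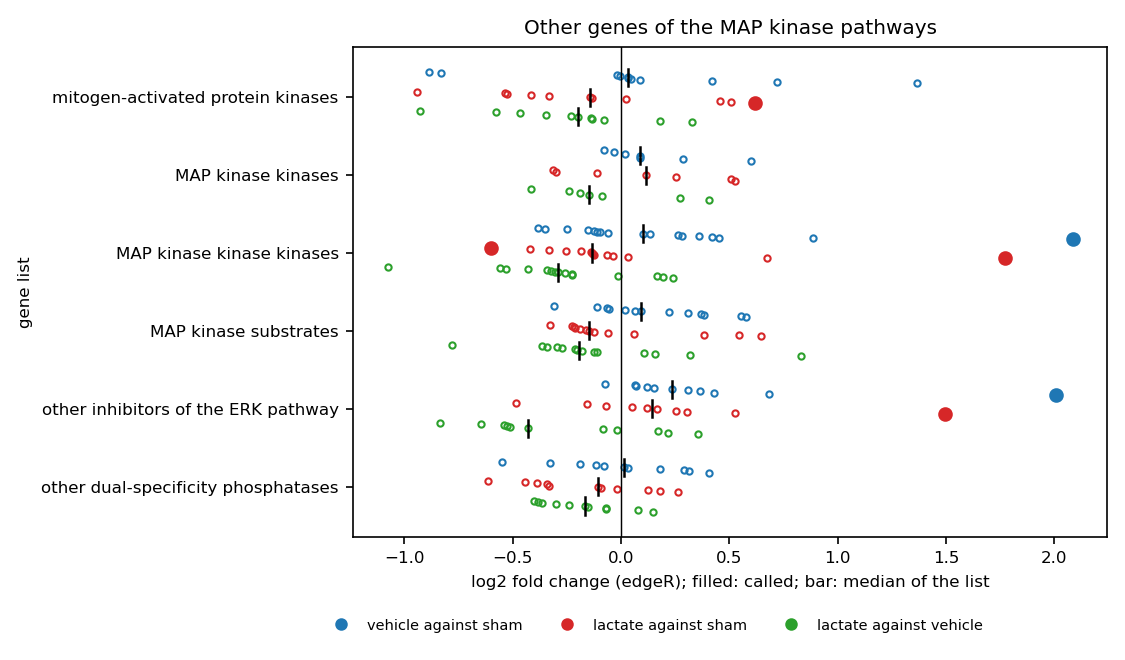
Log2 fold change from edgeR (horizontal axis) of each tested gene of 6 gene lists of the MAP kinase pathways, for the 3 comparisons in colour, with a filled point for a gene called (adjusted p under 0.05 and 1.5-fold or more) and a bar at the median of each list. The filled points are Errfi1 and Map3k8 against sham in both ischemic groups, and Mapk6 and Map3k13 with lactate against sham.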

How the data were processed

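Brain RNA of 12 mice, 4 per group, was analysed, grouped and numbered by the labels. The authors kept nanopore reads of at least 500 bases and a mean quality of at least 7, removed ribosomal RNA, mapped full-length reads with minimap2, polished isoforms (pinfish) and matched these to annotated transcripts (gffcompare). The submitters' processing notes name GRCm38 and DESeq 1.10.1, and the counting tool and its use of strand are not given in the sources used here. The authors deposited read counts per gene, not normalized, and the same counts as CPM, each divided by the library total. Recomputing CPM from the counts gave the deposited values. Columns of fold changes and p-values from the authors' edgeR comparisons were not used, and 4 lines without a gene were left out.

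Groups were compared on counts with edgeR 4.0.16 in R 4.3.3 (quasi-likelihood test, TMM, genes kept at 1 CPM or more in 4 or more of 8 mice), adjusted by Benjamini-Hochberg over all genes tested. The study's methods name DESeq instead. SE is the log2 fold change divided by the square root of F. Levels in figures and exact permutation tests (two-sided) used log2(CPM + 1). Alternatives were DESeq2 1.42.0, limma 3.58.1 voom with quality weights, other scalings, filters and call rules, 1 fit of all mice, a replicate block, Ensembl rows only, and leaving out each mouse. On simulated data for vehicle against sham (16659 genes), 35 genes changed 2-fold and 84 changed 4-fold were recovered of 187 changed, with 10 false calls. All 10 members are named. Of each pathway list at most 4 called genes are named (in lactate against sham, or the 2 with the smallest p), and for called members the 3 genes with the highest correlation. Correlated genes of the other members, and Fos and Egr1, were added after their values had been seen. The members and lists were chosen with earlier results of these data known. Tables and figures were made in Python 3.11.15 with scipy 1.17.1, pandas 2.3.3 and matplotlib 3.10.9.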

Additional observations from a re-analysis of the deposited data

Results flagged for a closer look

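In 2 of 30 sets of 4 mice (10 genes in 3 groups), the highest mouse was separated from the next by a gap larger, relative to the range of the set, than Dixon's 95% critical value for 4 values, which chance gives in about 1 in 20 sets. For Dusp4 in the lactate group, mouse 2 (10.8 CPM) lay far above mice 1, 3 and 4 (3.52 to 4.29 CPM), a gap of 0.893 of the range, and the log2 fold change of lactate against sham was 0.41 without it. For Dusp8 in the vehicle group, mouse 1 (23.3 CPM) lay above mice 2, 3 and 4 (11.7 to 13.1 CPM), a gap of 0.885 of the range, and the log2 fold change of vehicle against sham was -0.20 without it.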

How the results depend on the processing

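Among recomputed log2 fold changes of single members, 465 kept their direction and their side of the adjusted p of 0.05, 7 came to pass it, 6 ceased to pass it and 11 turned direction. With vehicle against sham, the number of members called was 1, and it was 2 (Dusp4 and Dusp5) with no filter, with DESeq2, with limma voom and with the replicate block. It was 0 to 2 when 1 mouse was left out, and 4 by the unadjusted rule (2 with DESeq2 or the replicate block). With lactate against sham the number was 0, and it was 0 to 1 when 1 mouse was left out (1 without sham mouse 2 or lactate mouse 3) and 3 by the unadjusted rule. With lactate against vehicle it was 0, and 2 by the unadjusted rule. Under the replicate block, Dusp4 had a log2 fold change of 1.49 (adjusted p = 0.0412) and Dusp5 of 1.69 (adjusted p = 0.0462) with vehicle against sham. The deviations of mice of the same number from their group means correlated at -0.173 to 0.179. The labels do not say whether the number marks anything shared, and these correlations cannot decide it.

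The direction turned for values that passed no test. When 1 mouse was left out, the log2 fold change with vehicle against sham ranged from -0.249 to 0.723 for Dusp6 and from -0.115 to 0.609 for Dusp16 (both lowest without vehicle mouse 3) and from -0.204 (without vehicle mouse 1) to 0.197 for Dusp8, which was at -0.12 with limma voom. With lactate against sham, it ranged from -0.18 to 0.079 for Dusp10 (above 0 without lactate mouse 1, and 0.008 without lactate mouse 2) and from -0.006 (without lactate mouse 2) to 0.516 for Dusp14. With lactate against vehicle, Dusp16 was at -0.086 with limma voom and ranged from -0.21 to 0.505, with -0.21 and -0.023 without vehicle mice 1 and 2 and -0.107 without lactate mouse 2. What in these mice or fits turned the direction was not tested. Counts per mouse were lowest for Dusp2, Dusp5 and Dusp10, at 2 to 49, and whether depth limits their calls was not tested.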
